A study of Mus musculus with 8 samples.

Results

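LGI1, LGI2, LGI3 and LGI4 are secreted proteins, and ADAM11, ADAM22 and ADAM23 are the membrane receptors that bind them. The genes for these proteins, *Lgi1*, *Lgi2*, *Lgi3*, *Lgi4*, *Adam11*, *Adam22* and *Adam23*, were taken by symbol, with earlier results of these data known. They are 7 of the 45706 genes in the table, and 7 of 7 passed the filter on low counts that left 17495 genes to test. The samples were ribosome-associated polyA RNA from parvalbumin-expressing (PV+) interneurons of the mouse primary somatosensory cortex (S1), with 4 samples from CNO-treated mice (CNO) and 4 from vehicle-treated mice (VEH). All mice, in both groups, were PvalbFlp/+;Neurod6Cre/+ and carried an AAV with a floxed, Flp-dependent (fdio) cassette for HA-RPL10a and myc-hM3Dq. The virus had been injected into S1 of newborn pups, recorded as postnatal day 1 for every sample. This virus gives an HA-tagged ribosomal protein, used to pull ribosomes down, together with hM3Dq, a receptor that raises firing when its ligand CNO is given. It is switched on by Flp in *Pvalb* cells and off by Cre in *Neurod6* cells, which are pyramidal cells, and a synapsin promoter drives it. CNO was given at 1 mg/kg, and each mouse had 5 injections of CNO or vehicle over about 48 h at 42 to 70 days of age. A sample pools the tissue of several mice, and no unpurified input was analysed here.

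LGI proteins leave the cell and bridge receptors across the extracellular space. LGI1 bound to ADAM22 and ADAM23 links the presynaptic and postsynaptic membranes, anchors to PSD-95 and stargazin at excitatory synapses, and sets the density of Kv1 potassium channels on axons. Loss of *LGI1* or *ADAM22* function causes epilepsy in people, antibodies to LGI1 cause limbic encephalitis, and loss of *Lgi2* causes epilepsy in dogs. LGI3 is found with Kv1 channels along myelinated axons, and LGI4 is best known as a glial signal in peripheral myelination. ADAM11, ADAM22 and ADAM23 belong to the ADAM protease family but lack a working catalytic site, and act as receptors rather than as enzymes.

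Library sizes were similar, at 44064161 to 49413273 estimated counts a sample. The marker genes showed how the pulldowns differed in content. The 12 PV+ interneuron markers summed to 2662 to 4133 TPM (transcripts scaled for their length and for library size) in CNO and 1244 to 3291 TPM in VEH, and the 11 pyramidal cell markers to 1413 to 1951 TPM in CNO and 1600 to 2282 TPM in VEH. The markers of the cells that the virus is designed to spare were thus not absent. VEH replicate 1 stood apart with the lowest PV+ sum. A marker index, the mean log2 CPM (counts scaled for library size alone) of the PV+ markers minus that of the pyramidal markers, was 1.06, 0.35, 0.88 and 1.49 in CNO replicates 1 to 4 and -0.92, 0.45, 0.92 and 0.79 in VEH replicates 1 to 4. In such bulk samples, fewer cells of a type and less RNA per cell cannot be told apart. The part of this difference in the results below was not tested, and most fold changes of named genes are given also without VEH replicate 1.

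Over all 8 samples, *Lgi3* had the highest level per transcript length of the 7 genes, with a mean of 92.6 TPM, and *Lgi4* the lowest, with 5.84 TPM. Between them lay *Lgi1* at 65.9 TPM, *Adam22* at 60.1 TPM, *Adam23* at 56.3 TPM, *Adam11* at 37.6 TPM and *Lgi2* at 34.2 TPM. *Lgi3* was at percentile 88.2 of all tested genes by mean TPM, *Lgi2* at 70.1 and *Lgi4* at 36.5. Neighbours in this order were compared within samples by an exact sign-flip test with Benjamini-Hochberg adjustment over the 6 pairs. *Adam23* exceeded *Adam11* in 8 of 8 samples by a mean of 0.58 on the log2 TPM scale (adjusted exact p = 0.0234), and *Lgi2* exceeded *Lgi4* in 8 of 8 samples by 2.48 (adjusted exact p = 0.0234). *Lgi3* was above *Lgi1* in 7 of 8 samples, which did not pass after adjustment (exact p = 0.0391, adjusted exact p = 0.0781). The other 3 neighbouring pairs, *Lgi1* and *Adam22*, *Adam22* and *Adam23*, and *Adam11* and *Lgi2*, did not differ beyond their spread (adjusted exact p of 0.375 to 0.406). Within the 4 CNO samples the means placed *Adam23* and *Adam22* above *Lgi1* and *Lgi2* above *Adam11*.

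**Figure D1:**
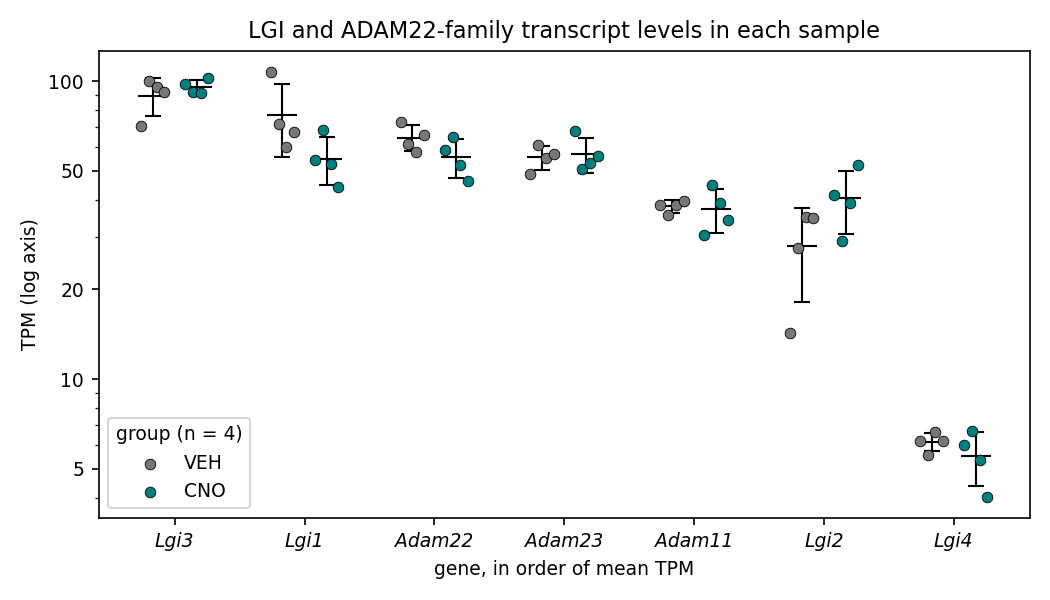
Level of each LGI and ADAM22-family gene in TPM on a log axis, with genes ordered by mean level, 1 point per sample, and bars at the mean ± SD of 4 samples a group. *Lgi1* and *Lgi2* spread most, with VEH replicate 1 at the top of *Lgi1* (107 TPM) and at the bottom of *Lgi2* (14.3 TPM).

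Among the ligands, *Lgi1*, the LGI gene most studied in the brain, was measured at 54.6, 68.7, 52.6 and 44.2 TPM in CNO replicates 1 to 4 and at 107, 72.1, 60.1 and 67.6 TPM in VEH replicates 1 to 4. The CNO values lay mostly below the VEH values, but CNO replicate 2 was higher than VEH replicates 3 and 4, so the groups overlapped. The mean was 55.0 ± 10.2 TPM (SD, n = 4) in CNO and 76.8 ± 21.0 TPM (SD, n = 4) in VEH. In the edgeR quasi-likelihood fit over all tested genes the log2 fold change of CNO against VEH was -0.37 (SE 0.13, 95% interval -0.67 to -0.077), with an unadjusted p of 0.0184 and an adjusted p of 0.817. An exact permutation test over the 70 assignments of samples, two-sided, gave p = 0.0571, where 0.0286 is the smallest p it can give. Without VEH replicate 1 the fold change was -0.24 on the log2 scale (edgeR, unadjusted p = 0.0415, adjusted p = 0.9998).

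*Lgi2*, the other epilepsy gene of the family, went the other way by sample. It was measured at 41.4, 29.0, 38.9 and 52.5 TPM in CNO replicates 1 to 4 and at 14.3, 27.5, 35.0 and 34.9 TPM in VEH replicates 1 to 4. CNO replicates 1, 3 and 4 lay above every VEH sample and CNO replicate 2 lay within the VEH range, so the groups overlapped here too. The mean was 40.4 ± 9.64 TPM (SD, n = 4) in CNO and 27.9 ± 9.74 TPM (SD, n = 4) in VEH. The log2 fold change was 0.60 (SE 0.29, 95% interval -0.030 to 1.24), the largest of the 7 genes, and it did not pass (unadjusted edgeR p = 0.0608, adjusted p = 0.817, exact permutation p = 0.143). VEH replicate 1 held the lowest *Lgi2* and the highest *Lgi1* value of the 8 samples. Without it the fold change of *Lgi2* was 0.37 on the log2 scale (edgeR, unadjusted p = 0.0854, adjusted p = 0.9998).

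Since *Lgi1* and *Lgi2* mostly moved in opposite directions across the samples, the bases before their gene starts are shown on the strand of each gene, 5′ to 3′. They come from RefSeq promoter windows on GRCm38.p6, and only the bases outside the annotated gene are printed, in lower case because no searched motif falls in them.
Lgi1, chr19:38264437-38264535, plus strand: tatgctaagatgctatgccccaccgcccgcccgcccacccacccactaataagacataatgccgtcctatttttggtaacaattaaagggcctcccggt
Lgi2, chr5:52566463-52566556, minus strand: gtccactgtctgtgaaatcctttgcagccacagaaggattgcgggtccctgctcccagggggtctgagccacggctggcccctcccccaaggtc
The whole window runs from 250 bases before to 50 after the RefSeq start, and 4 of the 7 genes were matched to one, namely *Lgi1*, *Lgi2*, *Adam22* and *Adam23*. Its GC content was 54.0% for *Lgi1* and 73.3% for *Lgi2*, against a median of 52.7% over 32851 windows. Motifs bound by activity-regulated factors were searched on both strands. The full cAMP response element TGACGTCA was in 1.79% of all windows, its shorter form TGACG, which the full one contains, in 20.8%, the AP-1 motif TGANTCA in 7.81% and the EGR motif GCGNGGGCG in 5.55%. Of the 4 members' windows only that of *Adam23* held any of these, an EGR match on the minus strand at an offset of -39 from the start, and a match or its lack in this window is a description of the letters alone.

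*Lgi3* was measured at 97.6, 91.9, 91.3 and 102 TPM in CNO replicates 1 to 4 and at 70.7, 99.9, 95.8 and 91.7 TPM in VEH replicates 1 to 4. Apart from VEH replicate 1, which was the lowest, the samples of both groups covered nearly the same range. The log2 fold change was 0.16 (SE 0.14, 95% interval -0.14 to 0.47, adjusted edgeR p = 0.817, exact permutation p = 0.343), and it was 0.042 without VEH replicate 1. *Lgi4*, the low member, was at 5.99, 6.70, 5.34 and 4.03 TPM in CNO and at 6.21, 5.57, 6.62 and 6.21 TPM in VEH. Its groups overlapped, with CNO replicate 4 the lowest sample, and the log2 fold change was -0.14 (SE 0.12, 95% interval -0.40 to 0.13, adjusted edgeR p = 0.817, exact permutation p = 0.229). The glial marker lists overlapped between groups as well, with oligodendrocyte markers summing to 569 to 1030 TPM in CNO and 788 to 1011 TPM in VEH and astrocyte markers to 463 to 537 TPM in CNO and 469 to 587 TPM in VEH. Of the 8 oligodendrocyte markers 8 had a fold change below 0 (median -0.23, unadjusted edgeR p under 0.05 in 0).

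The summed LGI transcripts held nearly the same level in every sample while their composition differed. The sum of the 4 LGI genes was 188 to 203 TPM in CNO and 197 to 205 TPM in VEH. *Lgi3* made up 48.7% ± 1.46 (SD, n = 4) of it in CNO and 44.6% ± 6.18 in VEH. *Lgi1* made up 28.0% ± 5.41 in CNO and 38.4% ± 10.7 in VEH, *Lgi2* 20.5% ± 4.53 in CNO and 13.9% ± 4.90 in VEH, and *Lgi4* 2.81% ± 0.600 in CNO and 3.07% ± 0.264 in VEH. VEH replicate 1 was the extreme sample, with 54.1% *Lgi1* and 7.18% *Lgi2*, and CNO replicate 4 was at the other end, with 21.8% *Lgi1* and 25.9% *Lgi2*. The shares of 1 sample add to a fixed total, so they are not independent of each other and were not tested.

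**Figure D2:**
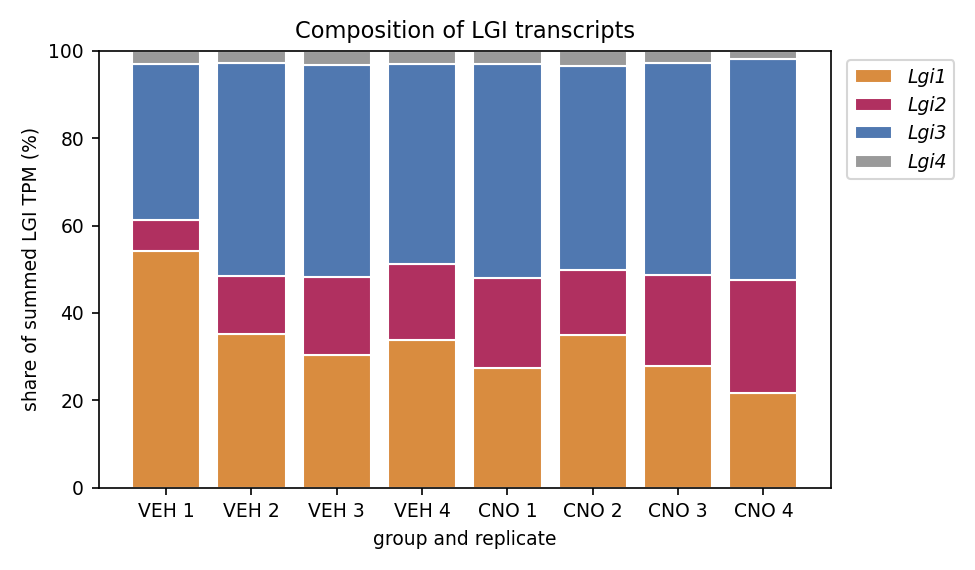
Share of each LGI gene in the summed LGI TPM of each sample, in percent, with VEH samples on the left and CNO samples on the right. *Lgi1* takes 54.1% in VEH replicate 1 and 21.8% to 35.2% in the other 7 samples, and *Lgi2* takes 7.18% in VEH replicate 1 and 25.9% in CNO replicate 4.

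Among the receptors, *Adam22*, the postsynaptic receptor of LGI1, was measured at 58.9, 65.1, 52.3 and 46.2 TPM in CNO replicates 1 to 4 and at 73.1, 61.5, 58.0 and 65.9 TPM in VEH replicates 1 to 4. CNO replicates 3 and 4 were below every VEH sample and the other 2 were within the VEH range. The log2 fold change was -0.19 (SE 0.13, 95% interval -0.48 to 0.10, adjusted edgeR p = 0.817, exact permutation p = 0.229), and it was -0.13 without VEH replicate 1.

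*Adam23*, which acts mainly on the presynaptic side, was at 67.9, 50.6, 53.3 and 56.2 TPM in CNO and at 48.7, 61.2, 55.3 and 57.1 TPM in VEH. In TPM the groups were intermixed apart from the high CNO replicate 1. In normalized CPM, CNO replicates 1 and 4 (93.8 and 86.3) lay above the VEH range of 65.1 to 79.3. The log2 fold change, taken from counts, was 0.14 (SE 0.11, 95% interval -0.12 to 0.39, adjusted edgeR p = 0.817, exact permutation p = 0.314). It was 0.075 without VEH replicate 1 and 0.061 without CNO replicate 1. *Adam11*, a partner of Kv1 channels at cerebellar basket cell terminals, was at 30.4, 44.8, 39.1 and 34.3 TPM in CNO and at 38.5, 35.4, 38.5 and 39.7 TPM in VEH. In TPM the CNO values bracketed the VEH values, with means of 37.1 in CNO and 38.1 in VEH. In normalized CPM the ranges were 58.7 to 73.1 in CNO and 57.3 to 70.8 in VEH. The log2 fold change, taken from counts, was 0.025 (SE 0.11, 95% interval -0.21 to 0.26, adjusted edgeR p = 0.951, exact permutation p = 0.771). Its sign turned under other scalings and when single samples were left out, so it has no settled direction. The 3 receptors together summed to 137 to 160 TPM in CNO and 152 to 163 TPM in VEH, and *Adam22* and *Adam23* made up 37.0% ± 2.82 and 38.2% ± 5.16 (SD, n = 4) of the sum in CNO and 40.8% ± 3.33 and 35.1% ± 3.49 in VEH.

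By the rule for a call (adjusted edgeR p under 0.05, over 1.5-fold and a mean above 1 TPM), 0 of the 7 genes were called, as were 0% of the 17495 genes tested. At an unadjusted p under 0.05 the count was 1 of 7, *Lgi1*, and for all genes it was 716, or 4.09%. The DESeq2 Wald test and the edgeR likelihood ratio test with robust dispersion also called 0 of the 7. Over all genes tested they called 10 and 12. Groups that did not overlap in normalized CPM were found for 0 of 7 members and for 2.42% of all genes. The fold change was above 0 for 4 members and below 0 for 3, with a median of 0.025 on the log2 scale beside 0.0014 over all genes. The 95% intervals above reach from -0.67 to 1.24 on the log2 scale over the members, so changes up to the bounds given for each gene are within the error of these samples.

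**Figure D3:**
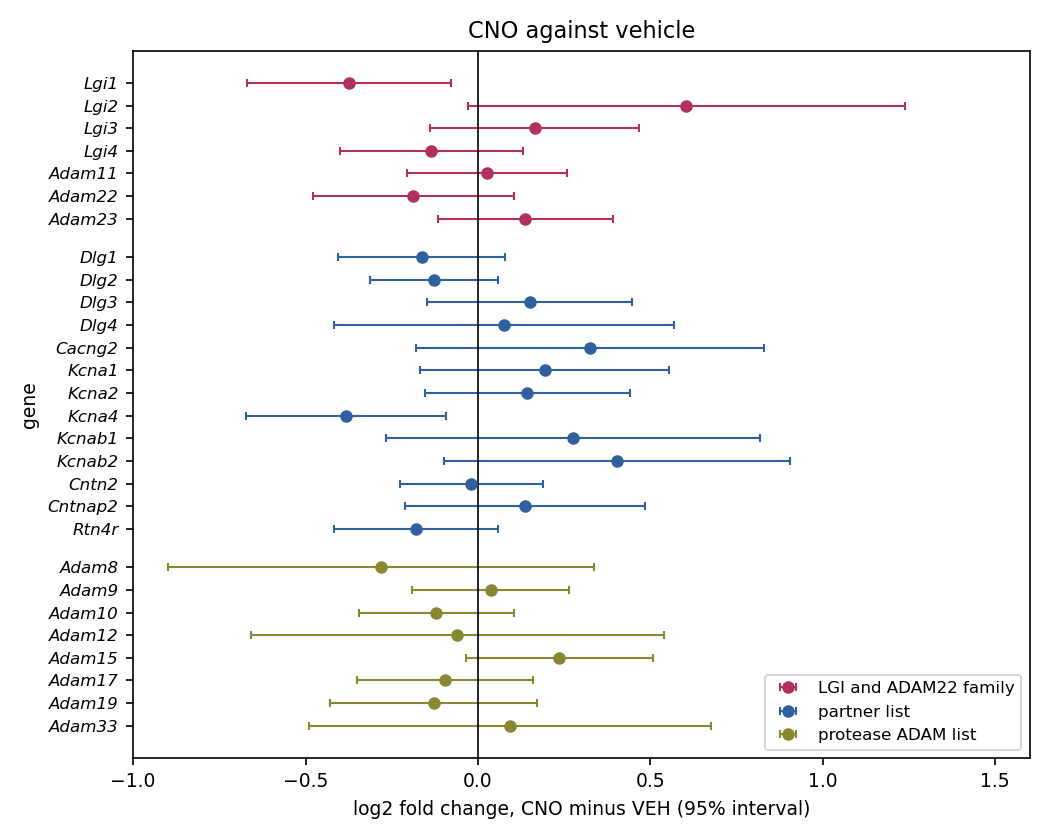
Log2 fold change of CNO against VEH with its 95% interval from the edgeR quasi-likelihood fit, for the 7 LGI and ADAM22-family genes, the 13 genes of the partner list and the 8 tested genes of the protease ADAM list. The intervals of *Lgi1* (-0.67 to -0.077) and *Kcna4* lie below 0 before adjustment for the genes tested, and the interval of *Lgi2* is the widest among the members.

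Across the samples *Lgi2* and *Lgi3* rose with the marker index and *Lgi1* fell as it rose. Of all tested genes, 5.41% rose with the index more closely than *Lgi3*. *Lgi2* rose with the index within each group as well as over all 8 samples: sorted by the index, the 4 CNO samples had 6.28, 6.82, 6.91 and 7.31 log2 CPM and the 4 VEH samples 5.22, 6.25, 6.58 and 6.65 log2 CPM. *Lgi1* went the other way, with 6.43, 6.23, 6.23 and 6.06 log2 CPM in the CNO samples and 6.97, 6.55, 6.46 and 6.42 log2 CPM in the VEH samples in the same order. Each group thus had its highest *Lgi2* and lowest *Lgi1* value in the sample with the highest index. The index was set against the members after their values had been seen, and the markers and members of a sample share its library.

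Over the 8 samples Pearson's r with the index was 0.992 for *Lgi2* (exact permutation p = 0.000149, adjusted over 7 relations 0.00104) and Spearman's rho was 0.952 (exact permutation p = 0.00114, adjusted 0.00799). Without VEH replicate 1 and CNO replicate 4, the samples farthest from the median index, r was 0.952 (exact permutation p = 0.00833). Of all tested genes, 0.0972% had a larger r than *Lgi2*, while 13.2% had an r above 0.9 and 2.67% an r below -0.9. The exact p tests only for no relation to the index, so a small p does not set a member apart from these genes.

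For *Lgi1* r was -0.954 (exact permutation p = 0.00112, adjusted 0.00391) and rho was -0.905 (exact permutation p = 0.00456, adjusted 0.0160), and 0.354% of all tested genes had a smaller r. For *Lgi3* r was 0.953 (exact permutation p = 0.00193, adjusted 0.00452) and rho was 0.857 (exact permutation p = 0.0107, adjusted 0.0250), with 5.41% of genes at a larger r. Without the same 2 samples r was -0.693 for *Lgi1* (exact permutation p = 0.129) and 0.550 for *Lgi3* (exact permutation p = 0.233), so neither passed over the remaining 6 samples.

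The receptors and *Lgi4* followed the index less closely. For *Adam23* r was 0.774 (exact permutation p = 0.0222, adjusted 0.0388) and rho was 0.738 (exact permutation p = 0.0458, adjusted 0.0642). For *Adam22* r was -0.731 (exact permutation p = 0.0314, adjusted 0.0439) and rho was -0.738 (exact permutation p = 0.0458, adjusted 0.0642). Among all tested genes, 22.3% had a larger r than *Adam23* and 14.3% a smaller r than *Adam22*. Without the 2 samples r was 0.629 for *Adam23* (exact permutation p = 0.178) and -0.294 for *Adam22* (exact permutation p = 0.590), and neither passed over the remaining 6 samples. *Lgi4* had r = -0.581 and rho = -0.571 (exact permutation p = 0.133 and 0.151, adjusted 0.155 and 0.176), and r was -0.308 without the 2 samples. *Adam11* had r = 0.149 and rho = -0.071 (exact permutation p = 0.774 and 0.882, adjusted 0.774 and 0.882), and r was -0.162 without the 2 samples.

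With the index as a covariate in the fit over all genes, the CNO fold change of *Lgi1* was -0.17 on the log2 scale (edgeR, unadjusted p = 0.0183, adjusted p = 0.9998). That of *Lgi2* was 0.15 (edgeR, unadjusted p = 0.0528, adjusted p = 0.9998). Both were smaller in size than without the index. The index was measured after treatment, and *Lgi2* followed it at r = 0.992. A smaller value in this fit thus cannot tell pulldown content from a response to CNO, and the cause was not tested. *Lgi3* turned to -0.015, and the other 4 members lay between -0.083 and 0.024. The 12 PV+ markers themselves had a fold change above 0 in 12 of 12 (median 0.43), and 10 of the 11 pyramidal markers had one below 0 (median -0.14), with an unadjusted edgeR p under 0.05 in 1 and 0 of them.

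**Figure D4:**
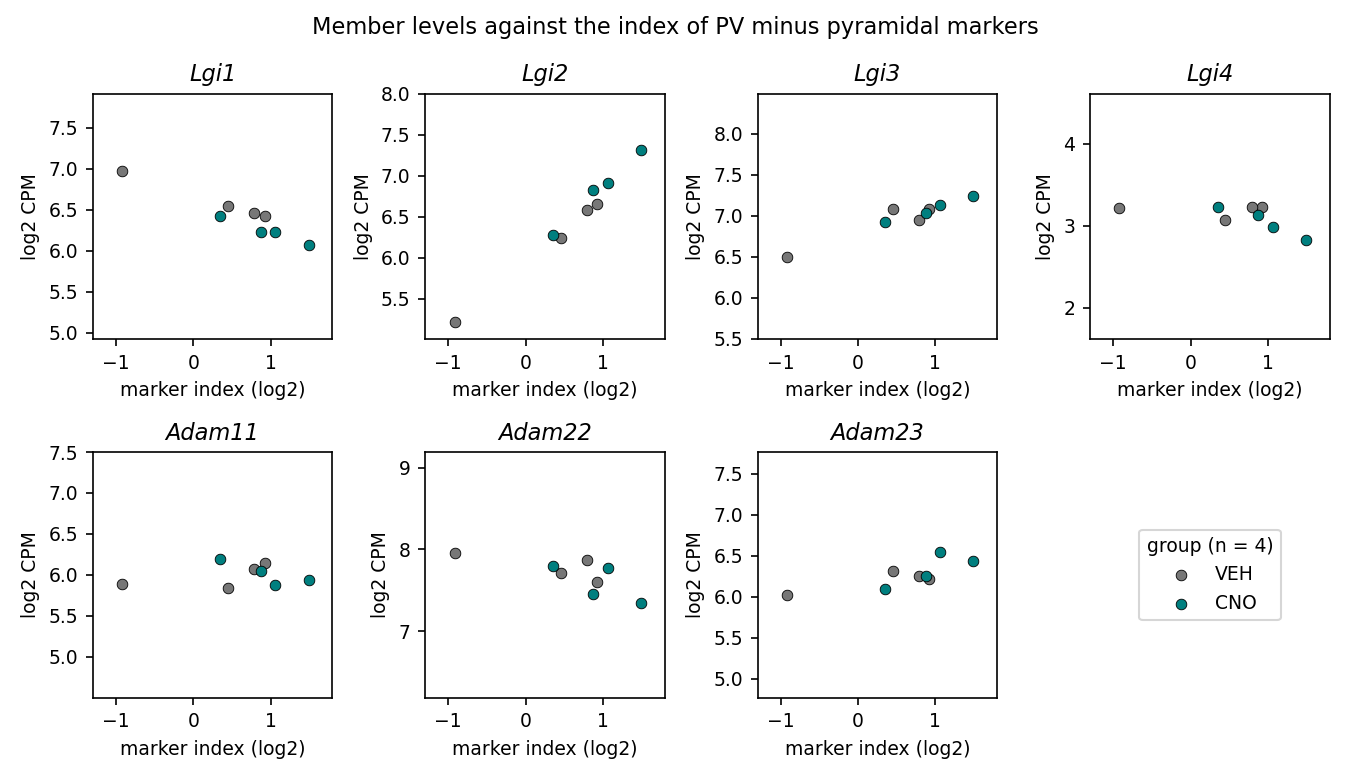
Log2 CPM of each LGI and ADAM22-family gene against the marker index of the sample (mean log2 CPM of 12 PV+ markers minus that of 11 pyramidal markers), 1 point per sample. Every panel spans 3 log2 units, *Lgi2* rises from 5.22 to 7.31 log2 CPM across the index, and VEH replicate 1 is the point at an index of -0.92.

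The genes whose profile was most like that of each member were taken as those with the smallest mean absolute difference of log2 CPM over the 8 samples, after centring each gene, among 15172 genes with a mean above 1 TPM. For *Lgi2* these were *Ank1*, an ankyrin of the membrane skeleton, at 0.072, *Gad1*, the enzyme that makes GABA, at 0.074, and *Btbd11* at 0.075, against a median of 0.45 over all candidates. *Gad1* is also 1 of the markers in the index. The nearest gene was *Csgalnact1* for *Lgi1* at 0.047, *Fam69b* for *Lgi3* at 0.020, *Dgkz* for *Lgi4* at 0.023, *Pcdhb16* for *Adam11* at 0.039, *Ercc4* for *Adam22* at 0.039 and *Ciao1* for *Adam23* at 0.023. The distance depends on how far a gene varies, and the range of log2 CPM over the 8 samples was 2.09 for *Lgi2*, 0.91 for *Lgi1*, 0.74 for *Lgi3* and 0.35 to 0.61 for the other 4 members.

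The partners of the LGI and ADAM22 proteins were described next. Of 13 such genes 13 were tested, 8 had a fold change above 0 and 5 below 0, with a median of 0.14 on the log2 scale beside 0.0014 over all genes, and 0 were called (1 at an unadjusted edgeR p under 0.05). That gene was *Kcna4*, a Kv1 channel subunit, at 12.2 to 14.1 CPM in CNO and 14.5 to 21.5 CPM in VEH. Its groups did not overlap, and its log2 fold change was -0.38 (SE 0.13, unadjusted edgeR p = 0.0142, adjusted p = 0.817, exact permutation p = 0.0286). Without VEH replicate 1 it was -0.25, and with the index as a covariate -0.20.

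The Kv1 subunits *Kcna1* and *Kcna2*, which sit on the axons of PV+ cells, had log2 fold changes of 0.19 (SE 0.16) and 0.14 (SE 0.13), which were 0.068 and 0.050 without VEH replicate 1 and -0.042 and -0.026 with the index as a covariate. *Cacng2*, the AMPA receptor partner stargazin, had 0.32 (SE 0.23), which was 0.13 without VEH replicate 1 and 0.022 with the index as a covariate. *Dlg4*, which encodes PSD-95, had 0.075 (SE 0.22), a sign that turned under other settings, and *Rtn4r*, the Nogo receptor that binds LGI1, had -0.18 (SE 0.11). None of these 5 passed the test at an unadjusted p. The largest increase of the list was 0.40 for *Kcnab2*, a Kv1 beta subunit (adjusted edgeR p = 0.817, exact permutation p = 0.200). The list median was -0.047 with the index as a covariate and -0.0078 without VEH replicate 1.

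The 14-3-3 proteins, which bind ADAM22 inside the cell and hold it at the surface, were tested in 7 of 7, with a fold change above 0 for 7 and a median of 0.16, and 0 were called (0 at an unadjusted edgeR p under 0.05). That median was 0.046 without VEH replicate 1 and -0.064 with the index as a covariate. Of 9 catalytic ADAM proteases 8 were tested, of which 3 had a fold change above 0 and 5 below 0 (median -0.078), and 0 were called (0 at an unadjusted edgeR p under 0.05). *Adam10* and *Adam17*, the main sheddases of neurons, had log2 fold changes of -0.12 (SE 0.10) and -0.095 (SE 0.12), which were -0.12 and -0.013 without VEH replicate 1. For comparison with a treatment readout in the same fit, *Fos*, the immediate early gene, was at 32.2 to 69.5 CPM in CNO and 11.3 to 15.8 CPM in VEH. Its log2 fold change was 1.93 (SE 0.21, adjusted edgeR p = 0.0520, exact permutation p = 0.0286), the smallest adjusted value of all genes. *Fos* passed by DESeq2 (adjusted p = 6.14e-13) and by the likelihood ratio test with robust dispersion (adjusted p = 6.25e-20). It also passed in edgeR without the low-count filter (adjusted p = 0.00151) and without CNO replicate 1 (adjusted p = 0.0132). Of 14 immediate early genes 6 had an unadjusted edgeR p under 0.05, all 6 higher in CNO, against 4.09% of all genes tested. Groups did not overlap in normalized CPM for 5 of the 14, against 2.42% of all genes, and 0 were called in the main fit.

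On GRCm38 the ligand genes lie on separate chromosomes, *Lgi1* at chr19:38264536-38312214 on the plus strand, *Lgi2* at chr5:52533517-52566462 on the minus strand, *Lgi3* at chr14:70530685-70538324 on the plus strand and *Lgi4* at chr7:31059342-31070935 on the plus strand. Among the receptor genes, *Adam11* lies at chr11:102761439-102780262 on the plus strand, *Adam22* at chr5:8072352-8368160 on the minus strand and *Adam23* at chr1:63445891-63596276 on the plus strand. All are protein-coding, with 2 annotated transcripts for *Lgi2* and 24 for *Adam22* at the extremes. Other genes, mostly *Gm3888*, share 11.4% of the 31-base words of *Lgi1* transcripts, so part of its count could have been assigned elsewhere. That share was 0.284% or less for the other 6 members. Exons of *Lgi1* share 532 bases with the antisense gene *Gm42723*, and exons of *Lgi4* share 2059 bases with *Fxyd3* on the opposite strand, and reads from these stretches cannot be told apart where the library does not mark strand. Exons of the other 5 members overlap no exon of another gene.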

How the data were processed

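Anti-HA pulldown RNA of 4 CNO and 4 VEH samples was sequenced paired-end (Illumina) from SMARTer Ultra Low libraries, a kit that does not mark strand. The authors deposited estimated counts and TPM for each gene and sample. Per the labels they used FastQC, Trim Galore, STAR and Salmon on GRCm38 (mm10), with versions not given in the sources used here.

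Estimated counts were rounded, genes with fewer than 10 counts in 4 or more samples were left out, libraries were scaled by TMM, and the groups were compared by edgeR 4.0.16 (glmQLFit and glmQLFTest, R 4.3.3) with Benjamini-Hochberg adjustment over 17495 genes. TPM was used for levels, log2 CPM (prior count 2) for profiles. Alternatives were a likelihood ratio test with robust dispersion, DESeq2 1.42.0, limma 3.58.1 on log2(TPM + 1) and log2(TPM + 0.1), library size or RLE scaling, a transcript length offset, no count filter or edgeR's filterByExpr, a replicate block, the marker index as a covariate, and each sample left out. The code was tested on simulated data. Totals of 44064161 to 49413273 counts put 3 counts at 0.0607 to 0.0681 CPM, which covers counting error only. Samples pool several mice, and nothing says which mice, so p-values measure the spread between pools.

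The members and gene lists were chosen with earlier results of these data known. Named genes were the 7 members, *Dlg4*, *Cacng2*, *Kcna1*, *Kcna2*, *Rtn4r*, *Adam10*, *Adam17*, *Fos*, any gene of the partner, 14-3-3 or protease lists at an unadjusted p under 0.05, and the nearest profiles (3 for *Lgi2*, 1 for each other member), with *Kcnab2* added after its value was seen. Gene positions are from GENCODE M21.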

Additional observations from a re-analysis of the deposited data

Results flagged for a closer look

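In VEH, *Lgi4* of replicate 2 stood apart from the other 3 samples of its group, at 3.07 log2 CPM against 3.22 to 3.23. The gap to its nearest neighbour was 0.904 of the range of the group, above Dixon's 95% critical value for 4 samples. Of the 14 groups of values tested, 1 passed, where chance gives about 0.7.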

How the results depend on the processing

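No member and no partner-list gene was called under any of the 19 alternatives run. Over all genes the count called was 0 in the main analysis, 4 without the low-count filter, 12 by the likelihood ratio test with robust dispersion and 10 by DESeq2, and 0 to 2 when 1 sample was left out (2 without CNO replicate 1). Of 133 member values under the alternatives 126 kept their direction and their side of the threshold and 7 changed sign. *Adam11* was -0.023 with library size scaling, -0.047 and -0.048 by limma on log2(TPM + 1) and log2(TPM + 0.1), -0.037 without CNO replicate 2, -0.0097 without VEH replicate 1 and -0.030 without VEH replicate 2, in a range of -0.037 to 0.080 with single samples left out. With the marker index as a covariate, *Lgi3* was -0.015, *Kcna1* -0.042, *Kcna2* -0.026, *Dlg4* -0.18 and *Adam17* 0.025. *Dlg4* was also -0.056 by the likelihood ratio test, -0.014 and -0.016 by limma with 1 and 0.1 added, -0.11 without CNO replicate 1 and -0.11 without VEH replicate 1, in a range of -0.11 to 0.20 with single samples left out. The cause was not tested.

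With single samples left out, the log2 fold change was -0.44 to -0.24 for *Lgi1* and 0.37 to 0.76 for *Lgi2*, and the smallest size of each came without VEH replicate 1. It was 0.042 to 0.22 for *Lgi3*, -0.20 to -0.073 for *Lgi4*, -0.26 to -0.12 for *Adam22* and 0.061 to 0.21 for *Adam23*. Neighbouring levels that differed numbered 2, and 2 to 3 with a sample left out. The count was 0 within the vehicle samples alone and 0 within the CNO samples alone, where 4 samples allow no exact p below 0.125.

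Between samples of equal replicate number the correlations of their deviations were 0.026, -0.030, 0.161 and 0.239. CNO replicates 1 to 4 correlated best with VEH replicates 2, 1, 3 and 3. With 4 samples a group these values cannot decide whether the samples were paired or shared a batch. With a replicate block 0 members, 0 genes of the partner lists and 0 of all genes were called, and *Lgi1* was -0.36 and *Lgi2* 0.65 on the log2 scale (edgeR, adjusted p = 0.799 for both).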

Other observations

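The transcript length behind each member's counts was taken as the ratio of counts to TPM in a sample relative to the other samples. TPM levels are scaled by this length, so it is not independent of them. The ratio differed between CNO and VEH by -0.042 (*Adam22*) to 0.030 (*Lgi1*) on the log2 scale, and the exact permutation p over the 70 assignments was 0.40 or more for all 7 genes. For *Lgi2* and *Lgi3*, the genes with the fewest annotated transcripts, the difference was -0.0025 and -0.0015.

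The remaining marker lists had few genes past an unadjusted edgeR p under 0.05. Markers of other interneurons summed to 596 to 691 TPM in CNO and 683 to 802 TPM in VEH, with 3 of 7 genes above 0 and 1 at an unadjusted p under 0.05. Markers of oligodendrocyte precursors summed to 55.2 to 80.5 TPM in CNO and 76.3 to 97.3 TPM in VEH, with 5 of 5 genes below 0 and 0 past that level. Microglial markers summed to a mean of 50.6 TPM in CNO and 63.3 TPM in VEH, with highest sums of 66.6 and 79.9 TPM, with 6 of 6 below 0 and 1 past that level, and endothelial markers to 22.9 to 68.1 TPM in CNO and 35.6 to 53.2 TPM in VEH, with 5 of 5 above 0 and 0 past that level.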
